A study of Homo sapiens with 8 samples.

Results

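In MDA-MB-231 cells, 2888 regions of the genome carried an LSD1 summit in both parental libraries and in neither RCOR2-KO1 library, out of 68148 regions with a summit in at least 1 of the 4 libraries. They were chosen on the presence of these summits alone. The summits of the 4 lists on chromosomes 1 to 22 and X were pooled, a gap of more than 500 bp between neighbours began a new region, and a region was taken as a member when both parental lists and no KO1 list had a summit in it. The members were 6.75% of the 42764 regions found in both parental lists. Because the lists themselves chose the members, their ranks and positions are given as a description, with no test between genotypes.

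The libraries were made by CUT&RUN, which tethers a nuclease to a chromatin-bound antibody and sequences the fragments cut loose around it. MDA-MB-231, an established human breast cancer line, was used as parental cells and as cells with a CRISPR/Cas9 knockout of RCOR2 (RCOR2-KO1), each genotype gave 2 libraries with an antibody against LSD1, and 4 further libraries made with rabbit IgG were the background for peak calling. The study's methods mention the mixing of knockout clones without saying whether this holds for these cells, and passage of the KO1 cells through cloning or selection cannot be told apart from the loss of RCOR2. The comparison asks whether LSD1 occupies the same sites when RCOR2 is missing.

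LSD1, encoded by KDM1A, is a histone demethylase that removes methyl groups from lysine 4 of histone H3, a mark of promoters and enhancers. It acts in the CoREST corepressor complex with the deacetylases HDAC1 and HDAC2. The scaffold of that complex is RCOR1, RCOR2 or RCOR3, which hold the demethylase and the deacetylases together on chromatin.

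A summit is the single base of highest signal within a called peak, and each list gives 1 summit per peak with the −log10 of the p or q value that the peak caller assigned. The lists held 47354 and 54467 summits in parental replicates 1 and 2 and 49586 and 50119 in KO1 replicates 1 and 2. The sequencing depth is unknown, and the −log10 value moves with depth, so a summit's strength is given as its percentile among the summits of its own list, with the strongest at 100. Positions are those of hg19 (GRCh37). Genes, promoters and sequences at the members were not analysed here, since no annotation or genome of that build was used.

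The 3 ways of pairing the 4 lists set the scale of the count. In the reverse direction of the genotype pairing, 2469 regions were found in both KO1 lists and in neither parental list, which was 5.8% of the 42571 regions of both KO1 lists. For the lists of equal replicate number, 565 of 39488 regions (1.43%) were found in both replicate 1 lists alone and 1405 of 42460 (3.31%) in both replicate 2 lists alone. For crossed numbers, 614 of 39832 (1.54%) were found in parental replicate 1 and KO1 replicate 2 alone, and 1302 of 42062 (3.1%) in parental replicate 2 and KO1 replicate 1 alone. In each of the other pairings the direction that held parental replicate 2, the longest list, had the higher count. When only the 47354 strongest summits of each list were kept, all lists were as long as the shortest. The 2 directions then became nearly equal in these pairings, at 893 and 902 for equal numbers and at 853 and 885 for crossed numbers. The members numbered 2689, or 6.64% of the regions then in both parental lists. Counting only regions that reached percentile 50 in each list of a pair, the genotype pairing gave 289 members and 244 regions in the KO1 direction, against 91 to 125 in each direction of the other pairings. For the other pairings, shares in these 2 settings were not calculated. The pairing by genotype therefore held the higher count in each setting named here, and the higher share with the full lists. With 3 pairings in all, no order of this kind can be told apart from chance.

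Most members were weak summits. Their median percentile was 18.8 in parental replicate 1 and 27.2 in parental replicate 2, or 23 ± 5.97 (mean ± SD of the 2 library medians, n = 2). The middle part of the members, between the quartiles, ran from 9.59 to 34.2 in replicate 1 and from 14.5 to 42.5 in replicate 2. Regions found in all 4 lists had medians of 59.0 and 64.6 in the same libraries (61.8 ± 3.92). In −log10 units, the median was 7.38 and 9.29 for members and 22.2 and 28.9 for regions of all 4 lists. Regions found in both parental lists and in 1 KO1 list numbered 4015 and lay in between, with medians of 25.4 and 34.1 in the parental lists (29.8 ± 6.12). The KO1-only regions were as weak in their own lists as the members were in theirs, with medians of 21.9 and 22.5 (22.2 ± 0.375). In 1878 members (65.0%) the percentile was higher in parental replicate 2 than in replicate 1. The same shift was present in the regions of all 4 lists. Across members, which are not independent replicates and come from the same 2 libraries, the percentiles of the parental replicates had a Pearson correlation of 0.724, against 0.826 across the regions of all 4 lists.

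**Figure D1:**
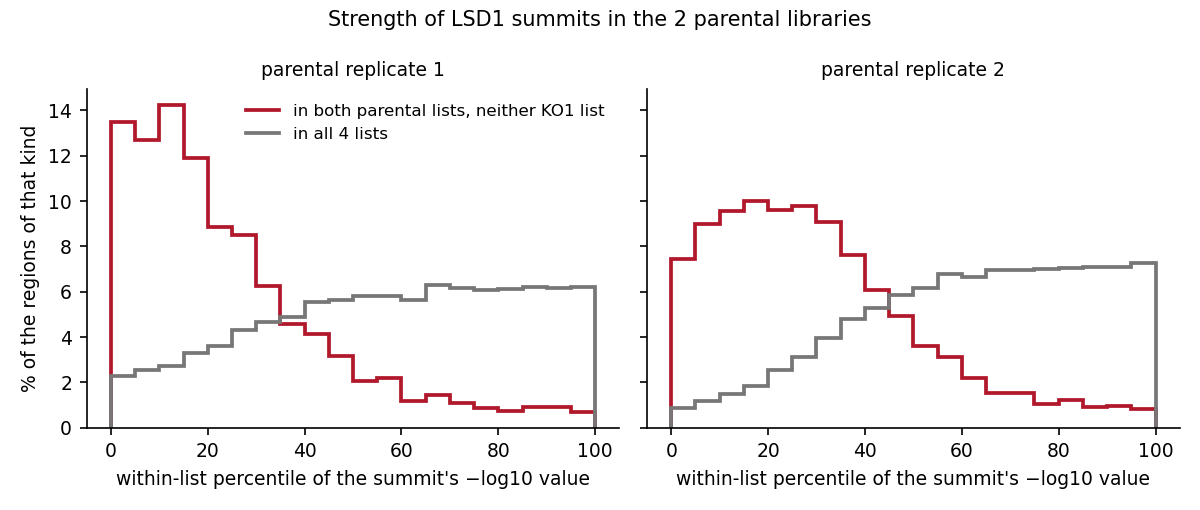
Percentage of regions (y) per 5-point step of the within-list percentile of the −log10 value (x) in each parental library, for the 2888 members (red) and the 35861 regions of all 4 lists (grey). Members pile up below percentile 40 in both libraries, and few are found in the upper steps, where the shared regions are spread evenly.

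The share of parental regions that were members fell steadily with strength. Among the 1099 regions of both parental lists with a mean parental percentile below 10, 368 (33.5%) were members. The share was 26.0% from 10 to 20, 14.6% from 20 to 30, 7.79% from 30 to 40 and 4.73% from 40 to 50. It was 2.54% from 50 to 60 and 0.956% from 90 upward, where 43 of 4498 regions were members. The share missing from 1 KO1 list alone, which the rule did not take, was 26.2% and 26.8% in the lowest 2 steps and fell to 1.85% in the highest. Altogether 2335 members were below percentile 50 in both lists, 289 were at or above it in both, and 126 (4.36%) had a mean of 75 or above, against 32.0% of the regions of all 4 lists.

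**Figure D2:**
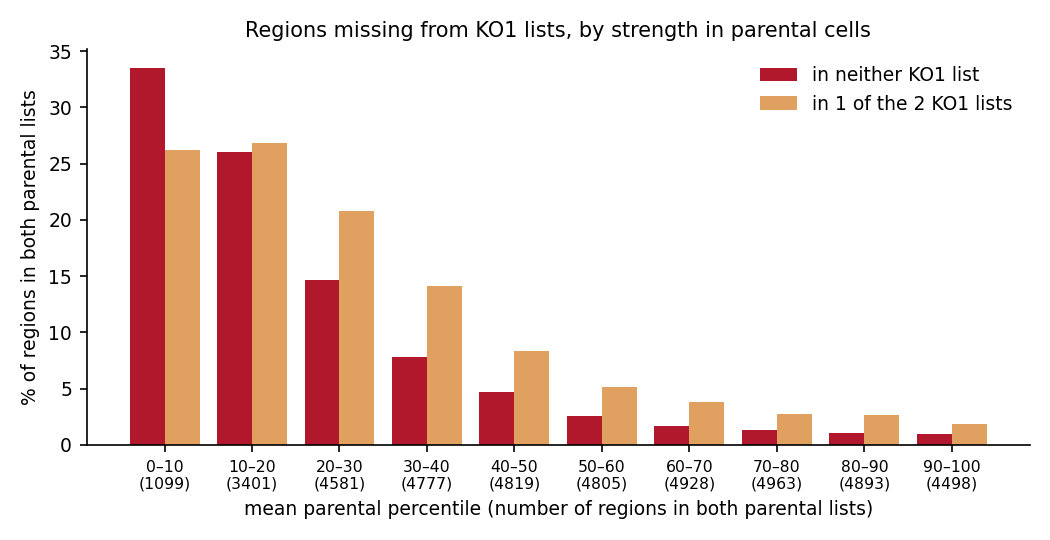
Percentage of the regions in both parental lists (y) that were in neither KO1 list (red) or in 1 of the 2 KO1 lists (orange), by mean parental percentile (x, with the number of regions in each step). The red bars fall from 33.5% below percentile 10 to 0.956% from 90 upward.

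The parental libraries placed the summits of a member almost as close together as those of a shared region. Of the 2888 members, 2887 had exactly 1 summit in each parental list, and in 25 these fell on the same base. The rule caps the offset at 500 bp in such members, since no KO1 summit can join the pair. In a shared region, KO1 summits can join parental summits that lie farther apart. The closeness within members is thus in part given by the rule. The median offset between the 2 parental summits was 60 bp for members and 44 bp for regions of all 4 lists, and 65.9% of members and 73.3% of shared regions were within 100 bp. At matched strength the gap was smaller. Below a mean percentile of 25, the medians were 68 bp in members and 60 bp in shared regions, and from 75 upward they were 43.5 and 42 bp.

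Members differed among themselves in how far the nearest KO1 summit lay, and strength went with that distance. The median distance to a summit of either KO1 list was 7990 bp. At over 500 and up to 1000 bp there were 334 members (11.6%), with median percentiles of 38.4 and 46.2 in parental replicates 1 and 2. From 1 to 2 kb there were 208 (7.20%), with medians of 25.6 and 33.1. The 558 members from 2 to 5 kb and the 972 from 5 to 20 kb were the weakest in replicate 1, with medians of 16.6 and 16.8 there and of 25 and 25.8 in replicate 2. The 634 from 20 to 100 kb had medians of 18.1 and 23.7, the lowest of all in replicate 2. Beyond 100 kb the 182 members (6.30%) were stronger again, at 24.8 and 33.3. Of these, 7 had a mean percentile of 75 or above, and 5 of the 7 lay in the 6 KO1-free intervals described below. The medians beyond 100 kb without these intervals were not calculated. The strong members therefore sat mainly at the near end of the range, with 91 of the 126 closer than 2 kb to a KO1 summit.

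**Figure D3:**
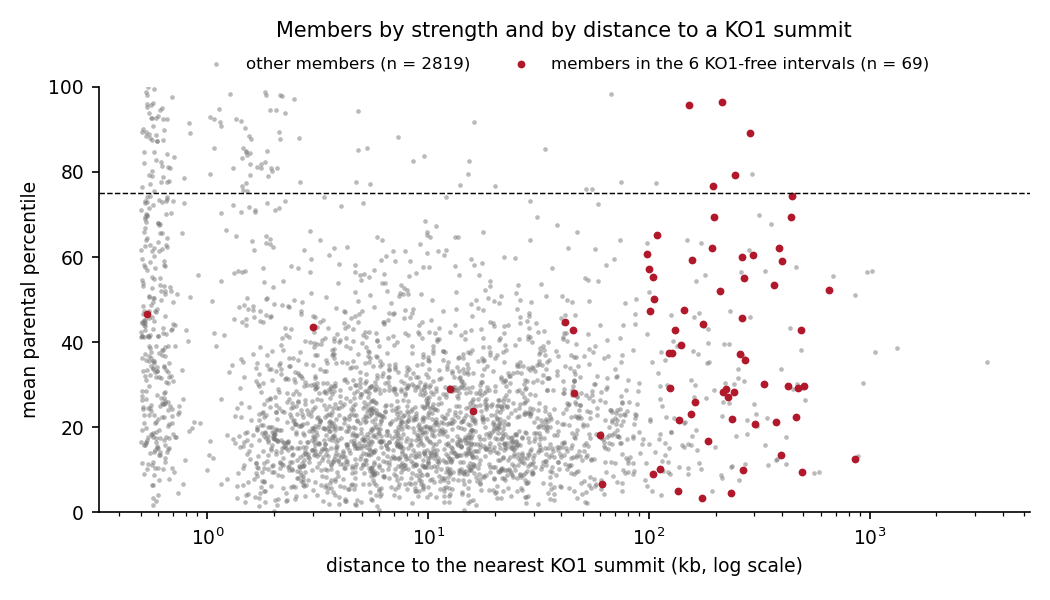
Mean parental percentile (y) of each of the 2888 members against the distance to the nearest summit of either KO1 list (x, kb, log scale). Red points are the 69 members in the 6 KO1-free intervals described in the text, grey points are the others, and the dashed line marks percentile 75. Strong members crowd between 0.5 and 2.5 kb, and a few stand beyond 20 kb.

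Of the 126 strong members, 54 (42.9%) had a KO1 summit within 1000 bp, and for 48 of these both KO1 lists did. Those KO1 summits were strong as well, with a median percentile of 91.8 for the strongest one near each member. In the 11492 equally strong regions of all 4 lists, the strongest parental and the strongest KO1 summit were a median of 43 bp apart, and in 162 of them (1.41%) they were over 500 bp apart. The files give no peak widths, so for a member of this kind a peak of the KO1 library that reaches over the parental summit cannot be told apart from a peak that is gone. Ending membership at a KO1 summit within 2 kb left 2346 members.

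The threshold of the rule itself passed through a continuous range. Just inside it, 194 members had their nearest KO1 summit at most 100 bp beyond the 500 bp limit, with a median mean percentile of 43.9. Just outside it, 285 regions of both parental lists had theirs less than 100 bp short of it, with a median of 41.9. The 5 members closest to a KO1 summit showed both kinds. The member at chr3:25896333-25896349 had percentiles of 61.9 and 80.3 in the parental lists and KO1 summits at 522 bp and 501 bp with percentiles of 63.7 and 77.0. The member at chr1:246729643-246729710 stood at 57.3 and 66.1, with KO1 summits at 503 and 517 bp of 87.5 and 85. The member at chr2:85073334-85073358 stood at 32.8 and 49.9, with KO1 summits at 582 and 502 bp of 27.2 and 45.3. For chr1:202169521-202169567 the parental values were 40.9 and 43.7, and the KO1 summits at 503 and 539 bp had 33.3 and 7.0. A single KO1 list had a summit near the fifth, chr13:114430920-114431008, which stood at 6.29 and 26.7, and that summit was weak, at percentile 4.47 and 501 bp away.

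The 20 strongest members, taken by the mean of the 2 parental percentiles, lay on 13 chromosomes and had means of 94.8 or above. In 10 of them a KO1 summit was within 1000 bp, in 7 it was between 1 and 2.5 kb away, and in 3 it was over 50 kb away. The strongest was chr5:1327210-1327263, with percentiles of 99.9 and 100 in the parental lists. KO1 summits of 99.8 and 99.9 lay 638 and 541 bp from it. The next was chr11:131758595-131758597, with 99.9 and 98.9, and its KO1 summits of 95 and 98.1 lay 575 and 604 bp away. At chr7:44678365-44678469 the parental percentiles were 97.9 and 99.6, and the KO1 summits of 98.8 and 99.5 lay 527 and 924 bp away. At all 3 places both genotypes thus had strong LSD1 summits, set apart by more than the joining distance. At chr14:50507252-50507287, with 99.0 and 98.5, the KO1 summits of 95.5 and 97.9 were 1827 and 1836 bp away. In 16 of the 20 both KO1 lists had a summit within 3 kb.

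The 3 strongest members without a KO1 summit nearby were of another kind. The member at chr21:47306537-47306571 had percentiles of 97.7 and 99.0 in the parental lists, and the nearest KO1 summit was 67.5 kb away. The member at chr2:2061162-2061285 had 95.8 and 97.2, and the nearest KO1 summit was 214 kb away. The member at chr12:115593588-115593606 had 94.3 and 97.3, with the nearest KO1 summit at 151 kb. Here a summit in the top 6% of both parental lists had no counterpart of any strength within 50 kb in either KO1 list.

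Altogether 13 members had a mean percentile of 75 or above and no KO1 summit within 20 kb; this set was chosen after the values were seen. Besides those 3, it held chr20:46600940-46601028 (89.7 and 88.5 in the parental lists, 285 kb from a KO1 summit) and chr1:7359559-7359653 (81.6 and 89.2, 33.6 kb). On chromosome 6 it held chr6:168727730-168727806 (86.4 and 72.4, 291 kb) and chr6:167637756-167637832 (86.1 and 67.3, 20.1 kb). On chromosome 16 it held chr16:82979440-82979505 (75.3 and 83.4, 246 kb), and on chromosome 20 also chr20:47002665-47002704 (75 and 80.4, 74.7 kb). The others were chr9:29440075-29440091 (83.7 and 70.9, 107 kb), chr2:2016290-2016294 (72.0 and 81.1, 195 kb), chr13:110228897-110228924 (77.8 and 74.2, 51.6 kb) and chr19:55030142-55030143 (71.4 and 80.6, 55.1 kb). Of the 13, 4 had no other member within 50 kb.

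Members lay nearly as close to shared LSD1 sites as these lay to each other. The median distance from a member to the nearest region of all 4 lists was 14456 bp, with quartiles of 5724 and 37597.5 bp. The shared regions themselves were a median of 12404 bp from the next shared region, and KO1-only regions were 17760 bp from one. Within 10 kb of a shared region were 40.2% of members, 36.5% of KO1-only regions and, for the next shared region, 43.4% of shared regions. At the far end, 89.8% of members had a shared region within 100 kb and 30 did not have one within 500 kb, the farthest being 3402007 bp away.

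Relative to their parental percentiles, shared regions close to a member ranked slightly lower in the KO1 lists than those far from one. For the 684 shared regions within 5 kb of a member, the median of the KO1 minus the parental mean percentile was -2.21, and 59.6% of them were lower in KO1. From 5 to 20 kb it was -2.65 over 2218 regions, from 20 to 100 kb -1.38 over 7499, and beyond 100 kb -0.0994 over 25460, against -0.578 over all 35861. Taken by replicate number, the median difference within 5 kb was -1.10 for replicate 1 and -3.50 for replicate 2, and beyond 100 kb it was 1.86 and -1.81. The shift between near and far shared regions was thus in the same direction in both replicate numbers. The near regions were also the stronger ones in parental cells, with medians of 66.2 and 70.6 within 5 kb and of 57.0 and 62.6 beyond 100 kb. In the KO1 lists they were the stronger ones too, with medians of 62.9 and 65.2 against 60.2 and 60.1. As a check chosen after seeing the data, shared regions were divided by their mean percentile over the 4 lists. Below 50 the median difference was -5.57 within 5 kb and -0.584 beyond 100 kb, from 50 to 75 it was -4.81 and 0.0612, and from 75 upward -0.321 and 0.0323. In all 3 classes the regions within 5 kb had a lower value than those beyond 100 kb, and among the strongest the gap was under 1 point. The lowest values were not the nearest ones. From 5 to 20 kb the medians were -6.48, -4.92 and -0.775 in the same order of classes. With all lists as long as the shortest, the median was -2.24 within 5 kb and 0.310 beyond 100 kb.

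Members were grouped along the genome. Another member lay within 50 kb of 27.8% of members, within 10 kb of 8.07% and within 250 kb of 62.2%. For the KO1-only regions these shares were 17.9%, 5.79% and 47.9%. Those regions were fewer, 2469 against 2888 members, and such shares rise with the number of regions. Shares at equal numbers or equal strength were not calculated. In the order of the regions of both parental lists, the region after a member was a member in 372 of 2880 cases (12.9%), against 6.75% of all these regions. In the KO1 direction it was 253 of 2469 (10.2%) against 5.8%. Joined at up to 50 kb, the members formed 2086 singles, 275 pairs, 48 groups of 3 and 20 groups of 4 or more, which held 108 members.

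The largest group had 17 members in 235 kb, at chr20:46419177-46653965. The parental lists had 21 summits each in that stretch and the KO1 lists none. The members there had percentiles from 2.45 to 89.7 in parental replicate 1 (median 34.3) and from 4.28 to 88.5 in replicate 2 (median 39.0). The second held 9 members in 84.9 kb at chr2:1976369-2061285, with medians of 53.7 and 50.6 and no KO1 summit. Groups of 6 without a KO1 summit lay at chr16:79634737-79692360 and chr5:174715501-174813048. Groups of 4 without a KO1 summit lay at chr21:47285203-47306571, where the strongest stood at 97.7 and 99.0, and at chr16:86389442-86421281. In 6 of the 10 largest groups, no KO1 summit was present between the first and the last member. The last 3 of these 10 are the shortest of 13 groups of 4, so over all groups of 4 or more the count was 8 of 20.

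The other 4 of these 10 groups were interleaved with shared sites. The 7 members at chr18:42305722-42419388 had medians of 43.1 and 54.9 and enclosed 1 region of all 4 lists. The 6 members at chr20:55990260-56122503 had medians of 10.3 and 28.6 and enclosed 4 such regions. The 5 members at chr2:23616084-23653297, with medians of 19 and 22.9, enclosed 3, and the 4 members at chr18:74163171-74207683, with medians of 26.9 and 29.2, enclosed 1. In these stretches the KO1 lists had LSD1 summits at some sites and lacked them at others.

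The groups without KO1 summits led to a second view, chosen after the values were seen, in which the genome was divided at every KO1 summit of either list. Of the 98923 stretches between neighbouring KO1 summits, 2569 (2.60%) held a member, most of these exactly 1. A member lies over 500 bp from any KO1 summit, so the shortest stretches could hold none, which lowers this share by construction. Altogether 6 stretches held 6 members or more, 69 members in all (2.39%). These 6 stretches span 4.67 Mb and contained 88 summits of parental replicate 1 and 101 of parental replicate 2. In the KO1 direction, only 2 stretches without parental summits held 6 or more regions of both KO1 lists, with at most 8 in 1 stretch, against 21 for members. Long stretches free of KO1 summits were mostly poor in LSD1 summits in parental cells too. Of the 1088 stretches at least as long as the shortest of the 6 (344 kb), 945 (86.9%) held no member and 99 held 1. Over these 1088, parental replicates 1 and 2 had 0.932 and 1.41 summits per Mb, against 16.1 and 18.5 over all chromosomes. Among the 6, both stretches on chromosome 16 were below the values over all chromosomes. They had 8.81 and 12.1 per Mb, and 12.6 and 11.7 per Mb, in parental replicates 1 and 2. The rest of the 6 were above those values in both libraries.

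The stretch with the most members was chr20:46315515-46912689, which held 21. Over its 597 kb, parental replicate 1 had 31 summits and replicate 2 had 29, or 51.9 and 48.6 per Mb. Its strongest member, at chr20:46600940-46601028, lay near the middle, and members at chr20:46424213-46424229 (68.8 and 61.7) and chr20:46507350-46507470 (56.4 and 67.8) were next. LSD1 summits of all 4 lists stood at both ends of the stretch. Past its right end, after a few KO1 summits within 15.3 kb, the next stretch without KO1 summits, chr20:46927992-47255248, held 5 further members, of which the strongest was at 75 and 80.4.

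On the long arm of chromosome 16, the stretch chr16:78244452-80061088 held 14 members in 1.82 Mb, with 16 and 22 parental summits. The members had medians of 31.8 and 37.9, and 6 of them form the group of this chromosome named above, among them chr16:79674041-79674051 (45.2 and 78.9) and chr16:79662310-79662603 (69.9 and 48.2). The stretch chr16:82733611-83841488 held 12 members in 1.11 Mb, with 14 and 13 parental summits and medians of 34.5 and 38.3. Its strongest were chr16:82979440-82979505, given above, and chr16:83177566-83177593 (65.4 and 83.2). In the first of these stretches 1 member was at percentile 50 or above in both lists, and in the second 4 were.

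Near the end of the short arm of chromosome 2, chr2:1821334-2275381 held 9 members in 454 kb, with 11 and 15 parental summits. It was the stretch with the strongest members, with 5 of the 9 at percentile 50 or above in both lists, and chr2:2061162-2061285 at their head. On chromosome 5, chr5:174673689-175017495 held 7 members in 344 kb, with 7 and 13 parental summits, and the strongest was chr5:174771641-174771664 (56.1 and 65.2). The stretch to its left, chr5:174151611-174673564, held 5 more. On chromosome 12, chr12:115442493-115792009 held 6 members in 350 kb, with 9 summits in each parental library. Its strongest member, at 94.3 and 97.3, stood well above the next, chr12:115541959-115541994 (46.0 and 68.6), and the stretch to its right, chr12:115792225-116400613, held 3 members.

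**Figure D4:**
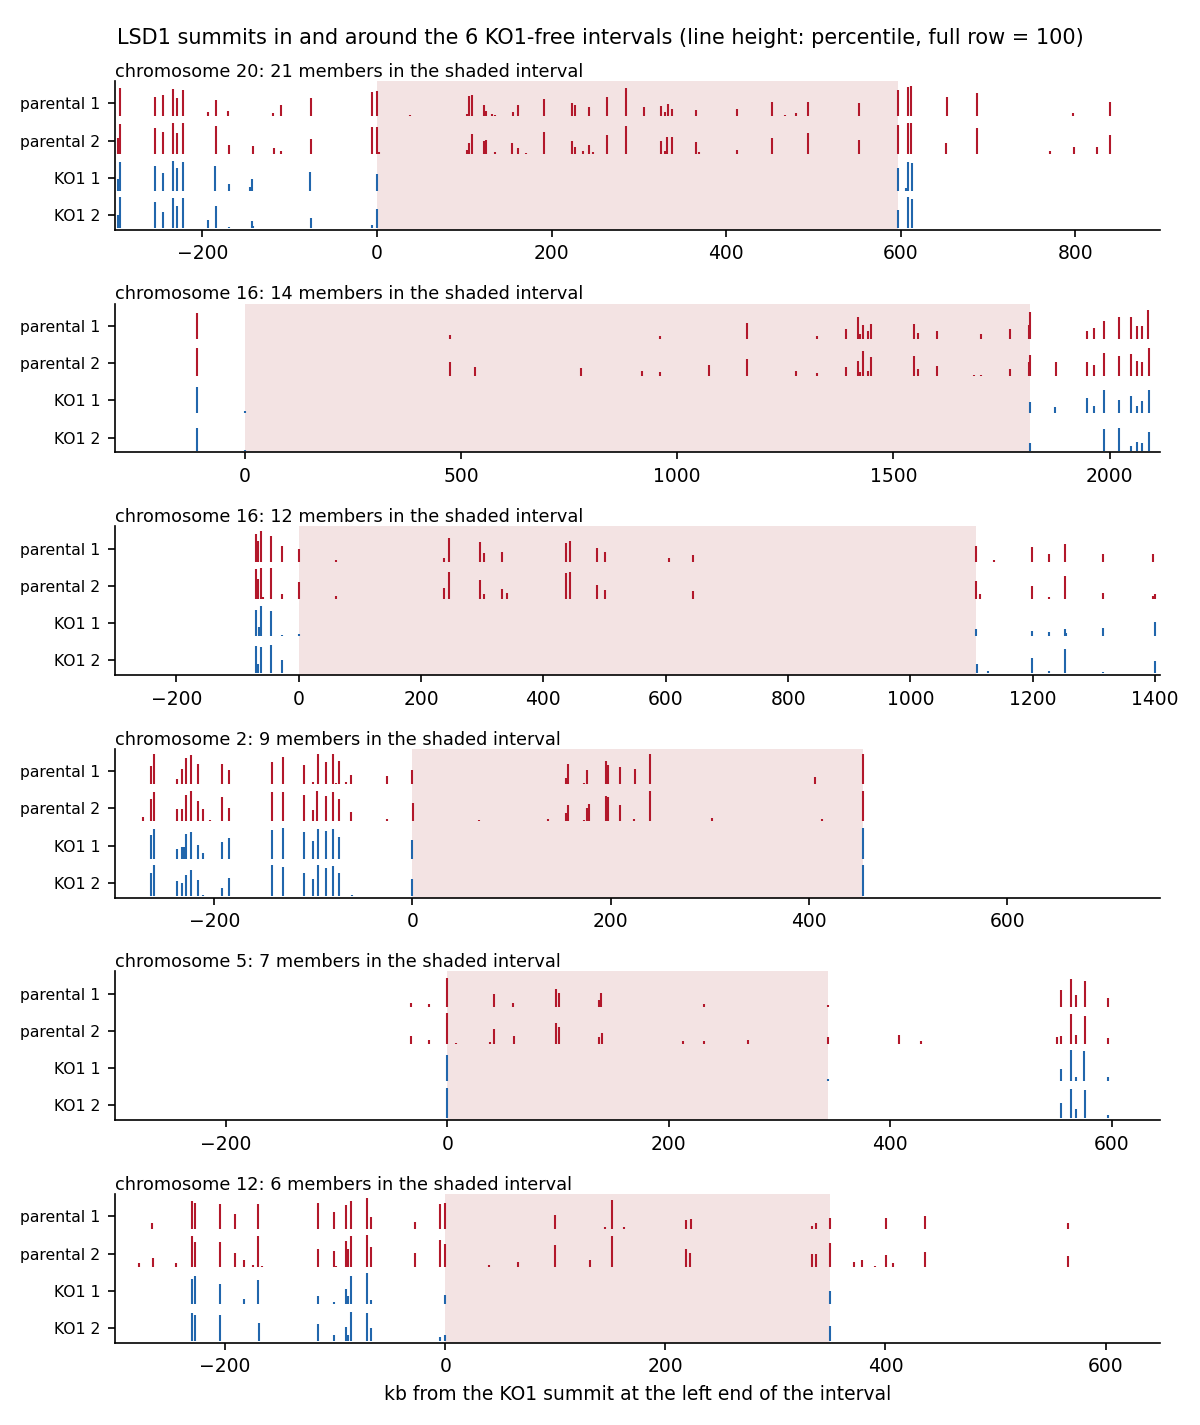
LSD1 summits of the 4 libraries in the 6 stretches without KO1 summits (shaded) and up to 300 kb on each side, with distance in kb from the KO1 summit at the left end (x) and 1 row per library, red for parental and blue for KO1. Line height is the within-list percentile, and a full row is 100. The parental rows have summits inside the shaded stretches, which hold 21, 14, 12, 9, 7 and 6 members from top to bottom. Long spans without parental summits remain, most of all in the stretches of chromosome 16. Both KO1 rows are empty inside the shading and have summits again at or beyond the ends.

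Members inside the 6 stretches had a median mean percentile of 37.5, against 22.2 for the other members. Of the 69, 16 were at percentile 50 or above in both parental lists. The 5 nearest shared regions on each side of a stretch were also examined, the farthest of them 2587 kb from its end. Of these 60 regions, 45 were lower in KO1 than in parental cells by mean percentile, where 52.6% of all shared regions were, and the medians of the 12 sides ran from -23.2 to 4.18 points. On 10 of the 12 sides the median was below 0. Whether the lower ranks around the stretches and the missing summits within them have a common origin was not tested. Read coverage and DNA copy number were not analysed here, so the stretches show only where summits were and were not called.

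The share of members also varied between chromosomes. It ran from 3.82% of the regions of both parental lists on X to 11.4% on chromosome 20, with a median of 6.54% over the chromosomes. Chromosomes 18 (11.1%), 16 (10.2%) and 21 (9.37%) followed. Without the members of the 6 stretches, the share was 9.86% on chromosome 20 and 8.39% on chromosome 16, and chromosome 18 has none of them. In the KO1 direction, KO1-only regions were 5.8% of the regions of both KO1 lists. Their share was 7.95% on X, the highest of any chromosome, and 4.18% on chromosome 20. It was 5.86% on chromosome 18 and 5.0% on chromosome 16. On chromosome 21, at 7.22%, it was above the value over all chromosomes, as for members. The median percentiles of the members in parental replicates 1 and 2 were 19.8 and 28.6 on chromosome 20, 20.1 and 29.0 on chromosome 16 and 20.7 and 26.8 on chromosome 18, each within 2 points of those of all members. On chromosome 21 they were 23.8 and 34.8, the highest of any chromosome in both libraries.

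**Figure D5:**
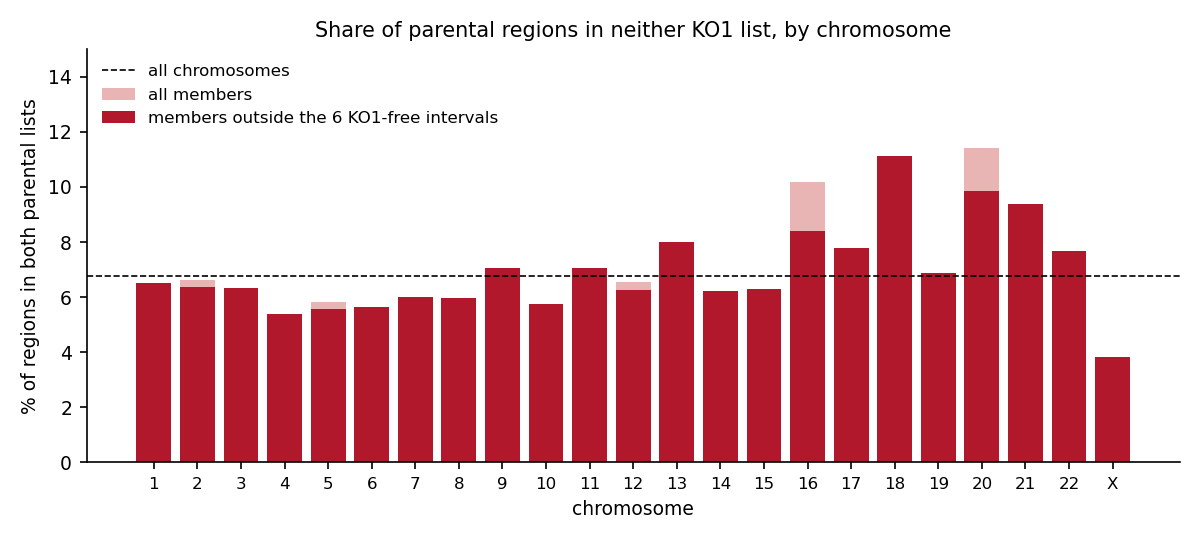
Members as a percentage of the regions in both parental lists (y) on each chromosome (x), with all members in light red and without the members of the 6 KO1-free stretches in dark red. The dashed line is the value over all chromosomes, 6.75%. Chromosomes 20, 18, 16 and 21 stand above 9%, and X is lowest at 3.82%.

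In bins of 10 Mb, the median share was 6% over the 291 bins with at least 30 regions of both parental lists, and 2 bins had no member. The highest share was 29.3% on chromosome 18 from 70 to 80 Mb, where 17 of 58 regions were members. Chromosome 2 from 0 to 10 Mb followed with 22 of 97 (22.7%), of which 9 are those of the stretch described above. Both last bins of chromosome 20, from 50 to 60 and from 60 to 70 Mb, had 18.9% and 19.2%, and chromosome 16 had 18.2% from 70 to 80 Mb and 16.6% from 80 to 90 Mb. Chromosome 18 from 40 to 50 Mb had 24 of 132 (18.2%) and chromosome 10 from 130 to 140 Mb had 6 of 37 (16.2%). In most of these bins the shared regions ranked lower in KO1 as well. Their median KO1 minus parental percentile was -10.4 on chromosome 18 from 70 to 80 Mb and -6.78 from 40 to 50 Mb. On chromosome 20 from 60 to 70 Mb it was -8.82. On chromosome 16 it was -8.11 from 80 to 90 Mb and -3.93 from 70 to 80 Mb, and on chromosome 10 from 130 to 140 Mb -2.21. It was near 0 on chromosome 2 from 0 to 10 Mb (0.151) and on chromosome 20 from 50 to 60 Mb (-0.120). Most of the bins named here as rich in members thus had shared LSD1 sites that ranked lower in KO1, and some did not. The part of these bin-wide shifts in the members was not tested.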

How the data were processed

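LSD1 occupancy was profiled by CUT&RUN in MDA-MB-231 cells, parental or RCOR2-KO1, with 2 libraries per genotype. Peaks were called by the authors with MACS2, separately for each library and against IgG, and they deposited 1 summit per peak with its −log10 p-value or q-value. The submitters' processing notes name FastQC 0.11.2, Bowtie2 2.3.3.1, Picard, MACS2 2.1.0 and hg19. The threshold is not given in the sources used here, and the lowest deposited −log10 values lay between 1.31 and 1.40.

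Calculations were done in Python 3.11.15 with pandas 2.3.3 and numpy 2.4.6, and figures were drawn with matplotlib 3.10.9. A percentile is the share of a list at or below a summit's −log10 value, and a region takes the highest of its summits in a library. A distance is taken between the nearest summits of a pair of regions. The steps were tested on simulated lists. The study states that CUT&RUN was repeated but not whether on separate cultures, so the spread between libraries may be technical.

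The members and the measures were chosen with earlier results of these data known. The items named are the 20 members with the highest mean parental percentile, the 10 largest groups at up to 50 kb, and the 5 members nearest to a KO1 summit. The stretches without KO1 summits, with their strongest members, and the 13 strong members far from a KO1 summit were added after the values were seen. Promoters, GC content, motifs, genes and sequences were not analysed here, since they need an annotation or a genome of GRCh37. Alternatives were other joining distances, lists of equal length, the upper 50% of each list, other distances for grouping and each library left out in turn.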

Additional observations from a re-analysis of the deposited data

How the results depend on the processing

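The 2888 members became 1641 in the upper 50% of each list, with fewer summits by construction, and stayed within 1.5 times of the count under the other settings with all 4 libraries: 3202 and 2773 at joining distances of 250 and 1000 bp, 2689 with lists cut to the shortest, and 2346 with a KO1 summit within 2 kb ending membership. The share of 6.75% was 8.14% at 250 bp, 6.26% at 1000 bp and 7.84% in the upper 50%. The median mean percentile of 22.4 was 15.1 when ranks were taken over the regions of both parental lists only. The median distance to a region of all 4 lists, 14456 bp, was 16212 bp at 250 bp and 32237 bp in the upper 50%, and 11198 bp to the nearest region of both KO1 lists. The share with another member within 50 kb, 27.8%, was 15.7% in the upper 50%, and by construction 8.07% within 10 kb and 62.2% within 250 kb. With each library left out in turn, so that 1 library stood for its genotype, the members ranged from 4836 (without KO1 replicate 1) to 9034 (without parental replicate 1), the share from 11.3% to 16.6%, the median percentile from 16.2 to 25.6 and the share within 50 kb from 34.6% to 49.1%. Distances to regions of all 4 lists and the other pairings need all 4 lists and have no such value.

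Chosen after seeing the data, leaving out the 6 stretches without KO1 summits gave 2819 members, a median percentile of 22.2, a median distance of 13922 bp and 26.5% with another member within 50 kb. Leaving out members with a KO1 summit within 1 kb gave 2554, 21.3, 14591.5 bp and 26.3%. The 69 members of the 6 stretches were between 58 and 72 at other joining distances and with lists cut to the shortest, and 16 in the upper 50%. For the other pairings and the single stretches, 26 of 40 values under alternatives stayed near those reported and 14 moved, 3 of them up. The cause of these movements was not tested except where the construction gives it. No result comes from a test, so no fit with the replicate number as a block was made, and values by replicate number are given beside the shared regions. Settings for promoters, GC content and motifs were not run, since no genome or annotation of GRCh37 was used here. The unknown depth, a single summit per peak with no width, and 2 libraries per genotype limit what a missing summit can show, most of all below percentile 20.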
